A study of Mus musculus with 2 samples.

Results

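The circadian clock genes Per1, Per2, Cry1, Cry2, Bhlhe40, Bhlhe41, Nr1d1, Nr1d2, Dbp and Arntl were compared between 2 libraries of CT26 cells, a mouse colon cancer cell line. The 10 genes were taken by symbol from a table of 54680 loci, and each symbol stood on 1 locus. They were chosen by their clock function and by their ratios between these 2 libraries, which were already known, so the values below describe them and test nothing. The group CT26shSetdb1 had been infected with a lentivirus carrying 1 short hairpin RNA that targets the transcript of Setdb1, a methyltransferase of histone H3, and its genotype is given as Setdb1 knockdown. The group CT26shCtrl, with the genotype wild type, had received the empty knockdown vector. Both were grown in RPMI medium with fetal bovine serum for 6 days, when the knockdown cells are described as differentiated. Each group had 1 library, made from total RNA of a whole culture, and 1 hairpin was used, so no difference has a replicate check and no p-value is given.

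In mammalian cells the clock is a transcriptional feedback loop. The activator BMAL1, encoded by Arntl, pairs with CLOCK or NPAS2 on the E-box CACGTG and raises transcription of the Per and Cry genes, whose proteins return to the nucleus and inhibit that pair. The same activator drives the Nr1d, Bhlhe and Dbp genes. The REV-ERB receptors encoded by Nr1d1 and Nr1d2 repress Arntl, against activation by the ROR receptors, and BHLHE40 and BHLHE41 (also called DEC1 and DEC2) compete for E-boxes. Dbp encodes an activator that binds D-boxes in output genes. Several of these genes also answer signals from outside the loop: Per1 is induced through CREB and by glucocorticoids, and Bhlhe40 is a known target of the hypoxia-inducible factor HIF.

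Promoter windows are shown for genes whose E-boxes or receptor sites can be set beside their ratios. RefSeq windows on GRCm38.p6, from 250 bases before to 50 bases after a transcription start, matched 8 of the 10 genes by symbol, all but Per2 and Bhlhe40. The E-box CACGTG, which reads the same on both strands, was found for 3 of the 8, namely Per1, Cry1 and Bhlhe41. A gene counted when any of its windows matched, and the 8 genes had 10 windows. Another window of Per1, chr11:69099902-69100201, had no CACGTG. Counted by window, the E-box was in 7.15% of all 32851. Ciart, a repressor of the BMAL1 pair from the list of other loop genes, held 3 copies. Capitals mark CACGTG in the windows of Per1 (chr11:69098699-69098998, plus strand), Cry1 (chr10:85185005-85185304, minus strand), Bhlhe41 (chr6:145865371-145865670, minus strand) and Ciart (chr3:95882179-95882478, minus strand).
Per1: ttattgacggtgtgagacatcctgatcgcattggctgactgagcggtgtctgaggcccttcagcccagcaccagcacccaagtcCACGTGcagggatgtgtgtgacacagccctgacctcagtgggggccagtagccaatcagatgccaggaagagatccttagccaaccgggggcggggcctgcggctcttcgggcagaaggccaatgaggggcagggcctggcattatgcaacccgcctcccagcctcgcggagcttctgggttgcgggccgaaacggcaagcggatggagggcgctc
Cry1: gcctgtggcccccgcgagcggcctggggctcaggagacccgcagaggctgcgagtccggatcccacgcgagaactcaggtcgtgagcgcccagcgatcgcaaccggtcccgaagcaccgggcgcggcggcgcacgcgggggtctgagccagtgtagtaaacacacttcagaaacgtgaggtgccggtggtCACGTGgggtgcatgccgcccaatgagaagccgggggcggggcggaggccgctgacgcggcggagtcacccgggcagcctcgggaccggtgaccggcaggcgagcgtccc
Bhlhe41: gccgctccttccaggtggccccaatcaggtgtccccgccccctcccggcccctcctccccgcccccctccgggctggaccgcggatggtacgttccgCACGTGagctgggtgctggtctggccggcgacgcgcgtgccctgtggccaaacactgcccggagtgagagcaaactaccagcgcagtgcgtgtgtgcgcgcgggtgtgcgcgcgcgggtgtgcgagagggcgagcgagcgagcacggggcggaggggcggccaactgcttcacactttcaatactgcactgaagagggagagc
Ciart: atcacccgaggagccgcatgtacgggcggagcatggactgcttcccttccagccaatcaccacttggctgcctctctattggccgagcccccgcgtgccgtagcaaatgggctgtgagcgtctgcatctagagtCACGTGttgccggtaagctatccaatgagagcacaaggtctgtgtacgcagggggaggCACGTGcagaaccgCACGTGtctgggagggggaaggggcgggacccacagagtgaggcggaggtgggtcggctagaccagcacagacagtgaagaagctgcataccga

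Capitals in the window of Nr1d2 (chr14:18239057-18239356, minus strand) mark AGGTCA, the core of sites bound by REV-ERB and ROR receptors. Those letters were searched on both strands and lay in 16.3% of all windows and in windows of 3 of the 8 matched genes, Per1, Nr1d2 and Arntl.
Nr1d2: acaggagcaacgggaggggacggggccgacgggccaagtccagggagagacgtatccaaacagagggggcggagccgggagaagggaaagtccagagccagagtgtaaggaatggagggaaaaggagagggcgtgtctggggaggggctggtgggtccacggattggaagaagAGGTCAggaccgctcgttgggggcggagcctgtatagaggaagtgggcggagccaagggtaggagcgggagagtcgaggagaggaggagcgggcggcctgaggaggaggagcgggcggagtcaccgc
The HIF core, ACGTG or GCGTG on either strand, was in 43.8% of all windows and in those of 7 of the 8 genes, and any CACGTG also counts as ACGTG. The D-box, TTATGTAA or TTACGTAA on either strand, was in 1.06% of windows and in none of the 8 genes, which says only that those letters are not in these windows. A match is a run of letters, not a shown binding site.

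The recovered totals were 18421604 reads for CT26shCtrl and 19045830 for CT26shSetdb1. Setdb1 itself stood at 10.4 FPKM in control cells and 2.47 FPKM in knockdown cells, a read ratio of 0.229 (0.202 to 0.259). FPKM counts fragments relative to gene model length and, here, 1 common depth. Levels are compared between genes on that length, which need not be the length of the transcripts present. The read ratio is knockdown over control, each relative to its own total. Intervals are 95% exact intervals, Poisson for a level and Clopper-Pearson for a ratio. They cover counting error only, not variation between cultures. Even that error may be understated, since PCR copies are not independent molecules. Of 12 colon epithelial markers, 3 reached 1 FPKM, of which Krt19 did so only in knockdown cells (1 and 53 reads). All 12 together summed to 43.2 FPKM in the control and 128 FPKM in knockdown cells, and Epcam, Cdh1, Cdx1 and Lgr5 had 0 reads in both. Among markers of other cells, Cd3e, Itgam, Adgre1, Pecam1, Cdh5, Kdr and Lum had 0 reads in both and Ptprc 0 and 4. The sum of the 6 leukocyte markers went from 10.4 to 100.2 FPKM, all but 4 of the 2364 knockdown reads being of Cd68, a lysosomal protein. The 4 fibroblast markers summed to 14.2 and 16.6 FPKM, most of it Pdgfrb at 13.5 and 14.6 FPKM, while Pdgfra had 94 and 333 reads, a read ratio of 3.43 (2.72 to 4.36). The part of these differences in the results below was not tested.

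All 10 clock genes reached 1 FPKM in both libraries, from 182 to 7921 reads a gene. A gene was called at a 2-fold difference of FPKM + 1, among the 10671 genes with at least 1 FPKM in at least 1 library. Bhlhe40, Per1 and Bhlhe41 were at least 2-fold higher in knockdown cells, against a background of 6.81% of all genes tested. Nr1d2 was at least 2-fold lower, against 4.85%. The other 6 were within 2-fold. Of the 10, 7 had a log2 ratio above 0, as did 49.6% of all genes tested. Since the genes were picked with these ratios known, nothing is read from the difference to the background. The median log2 ratio of (FPKM + 1), knockdown over control, was 0.14 for the 10 genes and -0.00039 for all genes tested, and the 10 ran from -1.23 to 1.88. Counting intervals left out a ratio of 1 for 8 of the 10 genes, as for 75.8% of all genes tested, so counting error is small beside most of these differences. In whole cultures, fewer cells expressing a gene and less RNA per cell cannot be told apart. The hour of collection and any synchronising step are not given in the labels, and with 1 library per group a shift of clock phase and a change of mean level cannot be told apart.

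**Figure D1:**
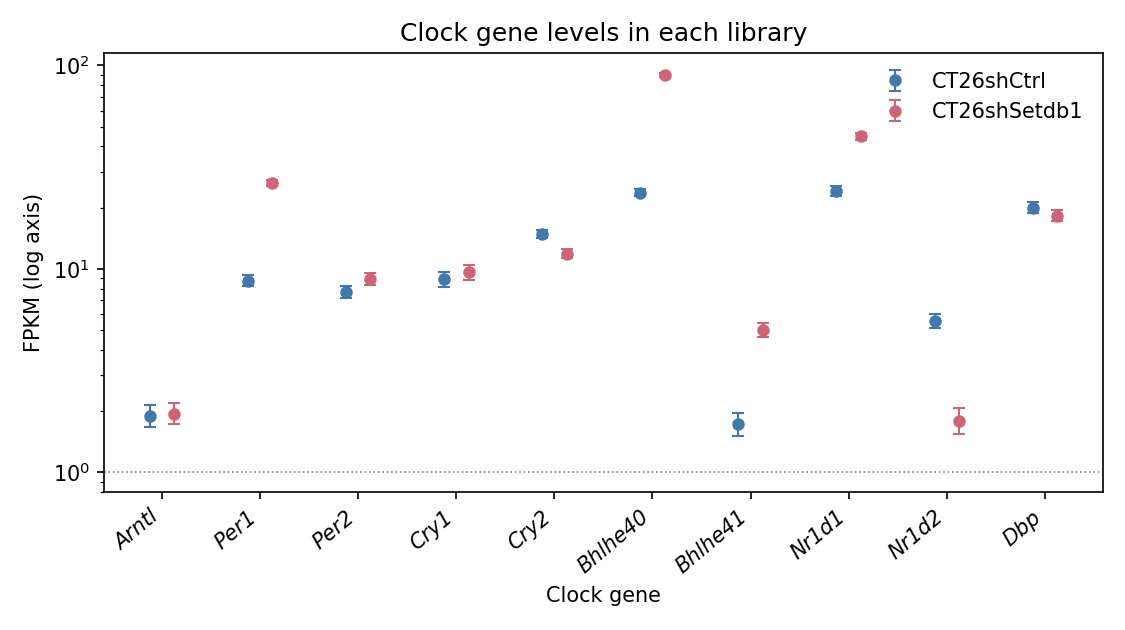
FPKM of each clock gene (log axis) in control cells (blue) and the knockdown library (red), ordered by role; bars are 95% exact Poisson intervals for counting error, and the dotted line is 1 FPKM. Bhlhe40 went from 23.7 to 89.9 FPKM and Nr1d2 from 5.56 to 1.80 FPKM, while the intervals of Arntl, Cry1 and Dbp overlap between libraries. For Dbp the interval of the read ratio, 0.810 to 0.961, nevertheless leaves out 1.

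Arntl, the activator, was low in both libraries. The gene (ENSMUSG00000055116) lies on chromosome 7 from 113207465 to 113314126, plus strand, in GRCm38. It had 1.90 FPKM (268 reads) in control cells and 1.94 FPKM (274 reads) in knockdown cells. These levels overlap within counting error, and the read ratio of 0.989 (0.833 to 1.18) covers a range from a small decrease to a small increase. The log2 ratio of 0.02 was below 0 when scaled by own read totals or by the upper quartile. Its partner Clock was at 1.21 FPKM (312 reads) in the control and 0.723 FPKM (186 reads) in knockdown cells. That is a read ratio of 0.577 (0.478 to 0.694), within 2-fold on the FPKM + 1 scale. Npas2, which can replace CLOCK, had 0 reads in both libraries. A limit of 3 reads for a count of 0 allows up to 0.0334 FPKM in each, and the exact Poisson interval reaches 0.0411 FPKM. Among the activating genes examined, low levels of 2 were therefore found, one alike in both libraries and the other lower in knockdown cells.

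Of the Period genes, which encode the repressors that enter the nucleus with the cryptochromes, Per1 differed most between the libraries. Per1 (ENSMUSG00000020893, chromosome 11, 69095217 to 69109960, plus strand) was at 8.76 FPKM (8.20 to 9.34) in control cells and 26.5 FPKM (25.5 to 27.5) in knockdown cells. Its read ratio was 2.92 (2.71 to 3.15) and its log2 ratio of (FPKM + 1) was 1.49, above that of 97.5% of the genes tested. Per2 (ENSMUSG00000055866, chromosome 1, 91415982 to 91459324, minus strand), the closest relative of Per1 in the loop, had 7.72 FPKM (847 reads) and 8.93 FPKM (979 reads). The small difference was just outside counting error, with a read ratio of 1.12 (1.02 to 1.23). Per1 and Per2 thus stood at nearly the same level in control cells, and in knockdown cells Per1 was 2.96 times as high as Per2. The ratio of their read ratios was 2.61 (2.32 to 2.95, exact conditional interval). Per3, a Period gene that is not needed for rhythm in mice, was at 1.48 FPKM (266 reads) and 2.77 FPKM (498 reads), a read ratio of 1.81 (1.56 to 2.11). All 3 Period genes were thus higher in knockdown cells, Per1 past 2-fold.

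The cryptochromes, the main inhibitors of the BMAL1 pair, were close to level. Cry1 (ENSMUSG00000020038, chromosome 10, 85131700 to 85185064, minus strand) had 8.89 FPKM (556 reads) in the control and 9.62 FPKM (602 reads) in knockdown cells, a read ratio of 1.05 (0.932 to 1.18). Cry2 (ENSMUSG00000068742, chromosome 2, 92403646 to 92434043, minus strand) had 14.8 FPKM (1754 reads) and 11.9 FPKM (1408 reads), a read ratio of 0.776 (0.723 to 0.833). The summed cryptochrome level was 23.7 FPKM in the control and 21.5 FPKM in knockdown cells, while that of Per1 and Per2 went from 16.5 to 35.4 FPKM. The sum for Per1 and Per2 was therefore below that of the cryptochromes in control cells and above it in knockdown cells. Ciart, whose window above holds 3 E-boxes, was at 36.8 FPKM (1557 reads) and 17.6 FPKM (747 reads), a read ratio of 0.464 (0.425 to 0.507). Of the 4 genes with an E-box window shown above, Per1 and Bhlhe41 were past 2-fold higher, Ciart was past 2-fold lower, with a log2 ratio of -1.02, and Cry1 was within 2-fold. Tef, described below, also held CACGTG in both of its windows and was within 2-fold.

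The largest ratio of the 10 belonged to Bhlhe40, the E-box repressor DEC1. Bhlhe40 (ENSMUSG00000030103, chromosome 6, 108660629 to 108666925, plus strand) had 2093 reads, 23.7 FPKM (22.7 to 24.8), in control cells and 7921 reads, 89.9 FPKM (87.9 to 91.9), in knockdown cells. Its read ratio was 3.66 (3.49 to 3.84) and its log2 ratio 1.88, above that of 98.7% of the genes tested. Bhlhe41 (ENSMUSG00000030256, chromosome 6, 145858243 to 145865558, minus strand), which encodes the related repressor DEC2, had 217 reads (1.72 FPKM) and 631 reads (5.01 FPKM). With a read ratio of 2.81 (2.41 to 3.30) and a log2 ratio of 1.14, it was higher in knockdown cells as well, from a much lower level. Bhlhe40 was 13.8 times as high as Bhlhe41 in control cells and 17.9 times in knockdown cells, and the ratio of their read ratios was 1.30 (1.10 to 1.53). Together the DEC genes went from 25.5 to 94.9 FPKM, nearly all of it Bhlhe40. Bhlhe41 shares exon bases with 1 locus on the other strand, Gm43909, which had 1 read in the control and 0 in knockdown cells.

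**Figure D2:**
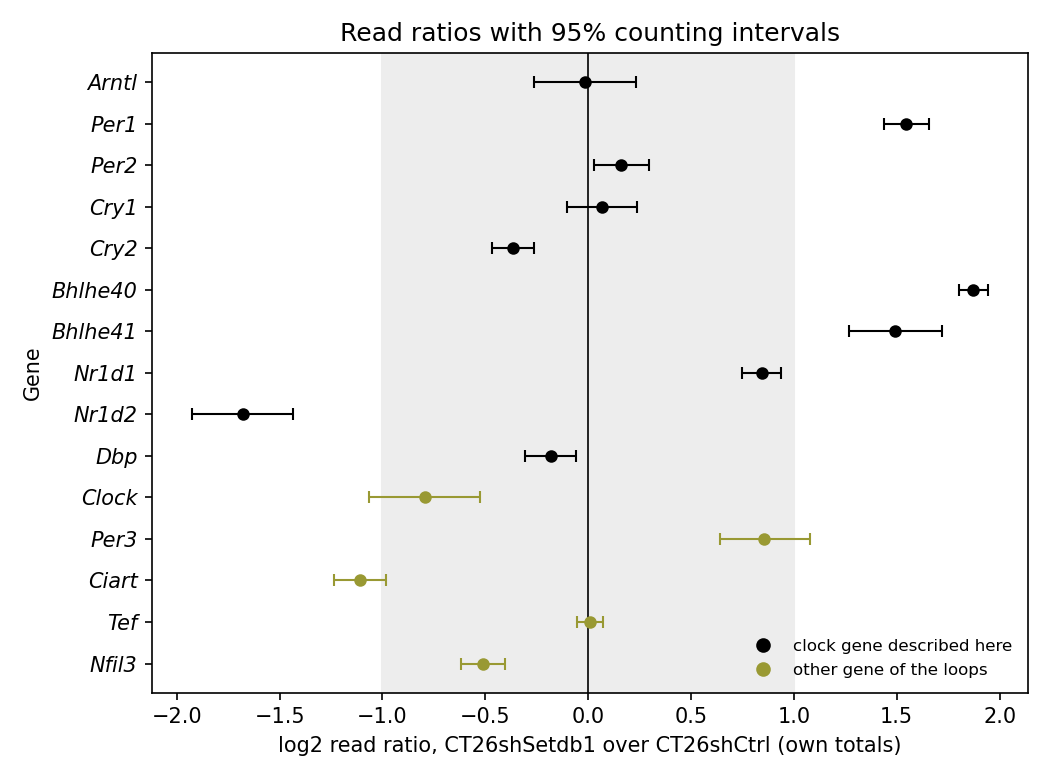
Log2 read ratio, knockdown over control and relative to own totals, for the 10 clock genes (black) and the other loop genes that reached 1 FPKM (olive); bars are 95% Clopper-Pearson intervals and the grey band is a 2-fold difference of reads either way. Of the 10, Bhlhe40, Per1 and Bhlhe41 lie to the right of the band and Nr1d2 to the left, while Nr1d1 is inside it.

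The genes of the REV-ERB receptors, the heme-binding repressors of Arntl, went in opposite directions. Nr1d1 (ENSMUSG00000020889, chromosome 11, 98767932 to 98775333, minus strand) was at 24.2 FPKM (1392 reads) in control cells and 44.8 FPKM (2582 reads) in knockdown cells. Nr1d2 (ENSMUSG00000021775, chromosome 14, 18204054 to 18239127, minus strand) was at 5.56 FPKM (563 reads) and 1.80 FPKM (182 reads). Neither pair of levels overlaps within counting error. The read ratio was 1.79 (1.68 to 1.92) for Nr1d1 and 0.313 (0.263 to 0.370) for Nr1d2. On the log2 (FPKM + 1) scale these were differences of 0.86, short of 2-fold, and -1.23, below which lay 2.66% of the genes tested. The ratio of their read ratios was 5.74 (4.78 to 6.90), the widest split among the 4 pairs of related genes. Nr1d1 was 4.35 times as high as Nr1d2 in control cells and 24.9 times in knockdown cells, and their summed level went from 29.7 to 46.6 FPKM.

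Nr1d1 lies tail to tail with Thra, the thyroid hormone receptor gene on the opposite strand, and 263 of its 3077 exon bases (8.55%) are also exon bases of Thra in GENCODE M21. Thra was higher in knockdown cells too, with 907 reads (10.5 FPKM) in the control and 2196 reads (25.4 FPKM) in knockdown cells. The strand setting of the counting is not given, so reads in the shared stretch cannot be assigned, and their part in the Nr1d1 ratio was not tested. Of the ROR receptors, which compete with the REV-ERBs for the same sites, Rora and Rorb had 0 reads in both libraries. The limit of 3 reads allows up to 0.0123 FPKM and 0.0145 FPKM, and the Poisson intervals reach 0.0151 and 0.0178 FPKM. Of the 7 other loop genes, Clock, Per3 and Ciart thus reached 1 FPKM. Of these, 0 were past 2-fold higher and 1 past 2-fold lower, beside 6.81% and 4.85% of all genes tested. With 3 genes, the median log2 ratio of -0.36 is the value of Clock alone.

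Dbp, the output activator driven directly by E-boxes, was nearly level. The gene (ENSMUSG00000059824, chromosome 7, 45705088 to 45710203, plus strand) had 20.03 FPKM (1123 reads) in the control and 18.3 FPKM (1024 reads) in knockdown cells, a read ratio of 0.882 (0.810 to 0.961). Of its 2993 exon bases, 18.01% are shared with Sphk2 on the opposite strand, which had 1807 and 1351 reads. Reads in that shared stretch cannot be assigned either, and their part in the Dbp ratio was not tested. Tef, which encodes another D-box activator of the same family, was at 28.01 FPKM (4128 reads) and 29.2 FPKM (4296 reads), a read ratio of 1.01 (0.964 to 1.05) whose log2 (FPKM + 1) value fell below 0 under upper-quartile scaling. Hlf, the third of that family, had 21 and 7 reads and did not reach 1 FPKM. Nfil3, the repressor that competes for D-boxes, was at 45.4 FPKM (1722 reads) and 32.9 FPKM (1250 reads), a read ratio of 0.702 (0.652 to 0.756). Neither Dbp nor Tef nor Nfil3 was past 2-fold.

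Ordered by level, the control library had Nr1d1 and Bhlhe40 at the top, with overlapping intervals of 22.9 to 25.5 and 22.7 to 24.8 FPKM. Dbp, Cry2, Cry1, Per1, Per2, Nr1d2, Arntl and Bhlhe41 followed. In that order the intervals of Cry1 and Per1, Per1 and Per2, and Arntl and Bhlhe41 overlapped. An overlap of separate intervals does not show that the levels are equal. In the knockdown library the order was Bhlhe40, Nr1d1, Per1, Dbp, Cry2, Cry1, Per2, Bhlhe41, Arntl and Nr1d2, and neighbours overlapped for Cry1 and Per2 and for Arntl and Nr1d2. Per1 thus moved above Dbp and Cry2, and Nr1d2 moved to the lowest place.

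**Figure D3:**
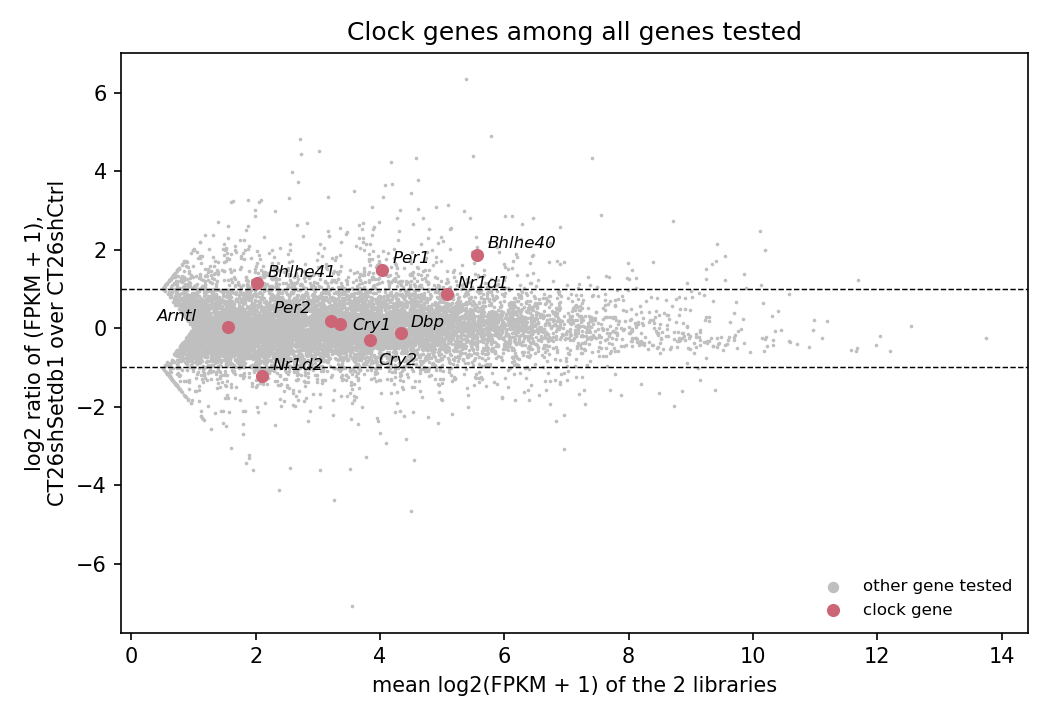
Log2 ratio of (FPKM + 1), knockdown over control, against the mean log2(FPKM + 1) of the 2 libraries for all 10671 genes tested (grey), with the 10 clock genes in red and dashed lines at 2-fold. Bhlhe40 at 1.88, Per1 at 1.49 and Bhlhe41 at 1.14 are above the upper line and Nr1d2 at -1.23 below the lower one.

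Genes that modify clock proteins were mostly level. Of 24 kinases, ubiquitin ligases and cofactors, 20 reached 1 FPKM, 0 were at least 2-fold higher and 1 was at least 2-fold lower, and their median log2 ratio was -0.06. The shares of all genes tested were 6.81% higher and 4.85% lower. Casein kinase 1, which marks PER proteins for breakdown, was at 47.6 and 53.2 FPKM for Csnk1d and at 15.2 and 16.6 FPKM for Csnk1e. The lowest ratio was that of Gsk3b, a kinase of several clock proteins, at 6.46 FPKM in the control and 2.68 FPKM in knockdown cells (log2 ratio -1.02). The highest was that of Btrc, a ligase component that recognises phosphorylated PER, at 2.05 and 4.34 FPKM (log2 ratio 0.81).

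Genes known as clock outputs differed widely in the size of their ratios. Of 14, 9 reached 1 FPKM, 7 of them with a log2 ratio above 0 and 2 below. At 2-fold, 2 of the 9 were higher and 0 lower, and the median log2 ratio was 0.29. Among all genes tested, 49.6% had a ratio above 0, 6.81% were at least 2-fold higher and 4.85% lower. The lowest ratio was that of Tspan4, a tetraspanin gene, at 195.9 and 100.01 FPKM (log2 ratio -0.96), which passed 2-fold lower when scaled by own read totals or the upper quartile.

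Genes that share an outside signal with Per1 or Bhlhe40 were higher more often than lower in knockdown cells. Of 17 immediate-early genes of CREB and serum signalling, the route by which Per1 is induced acutely, 14 reached 1 FPKM, 8 of them at least 2-fold higher and 1 lower, with a median log2 ratio of 1.21. Over all genes tested, 6.81% were at least 2-fold higher and 4.85% lower, and the median was -0.00039. Egr2, a zinc finger factor, was highest with 27 reads (0.424 FPKM) and 304 reads (4.78 FPKM), and Nr4a2, an orphan nuclear receptor, lowest with 281 and 101 reads. Egr2 reached 1 FPKM only in knockdown cells and so entered the count through the library where it is high. Of 10 glucocorticoid-induced genes, a list that includes Per1, 9 reached 1 FPKM and 5 were at least 2-fold higher, beside 6.81% of all genes tested, with a median of 1.003. Per1 itself was highest, and Klf9, a Krüppel-like factor, was lowest at 5.64 and 2.42 FPKM (log2 ratio -0.96). Without Per1 the count was 4 of 8 and the median 0.65. Scaling by own read totals left 4 of the 9 at least 2-fold higher, and upper-quartile scaling left 4 higher and put 1 lower.

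HIF target genes had the highest median of the 7 lists. Of 22, a list that includes Bhlhe40, 19 reached 1 FPKM, all 19 had a log2 ratio above 0 under each scaling tried, and 14 were at least 2-fold higher. Over all genes tested, 49.6% had a ratio above 0 and 6.81% were at least 2-fold higher. The median was 1.88, or 1.86 with 13 of 18 called when Bhlhe40 is left out. On the FPKM + 1 scale Car9, the hypoxia-induced carbonic anhydrase, was highest at 0.695 FPKM in the control and 37.7 FPKM in knockdown cells. By read ratio Ankrd37, an ankyrin repeat gene, was higher, at 69.6 (39.6 to 135) against 52.4 (36.6 to 78.0) for Car9, and these intervals overlap. Both genes reached 1 FPKM only in knockdown cells, so they entered the count of 14 through the library where they are high. Vegfa, the angiogenic growth factor, was lowest at 47.8 and 53.3 FPKM (log2 ratio 0.15). Bhlhe40 thus stood at the middle of that list. Ddit4 is in both the glucocorticoid and HIF lists and Dusp1 in both the immediate-early and glucocorticoid lists, so these counts are not independent. The lists were chosen with results of these libraries known, and the part of any of these signals in the clock gene ratios was not tested.

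**Figure D4:**
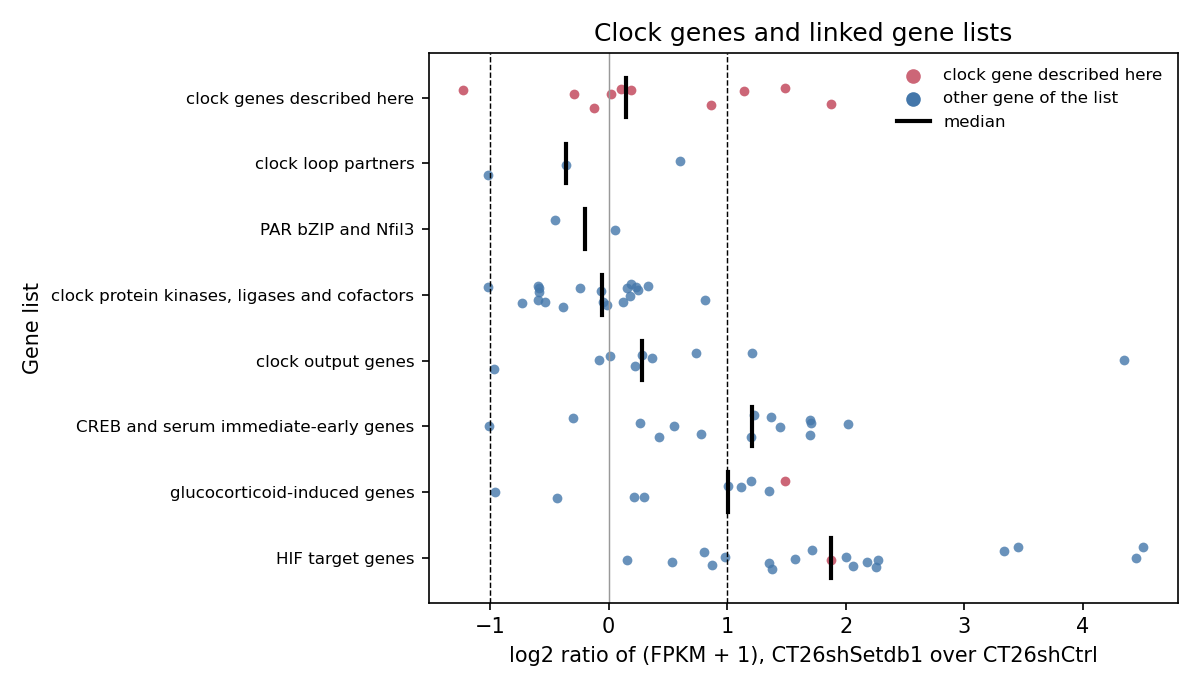
Log2 ratio of (FPKM + 1), knockdown over control, of each gene that reached 1 FPKM in at least 1 library (points, spread vertically at random) for the 10 clock genes and 7 linked lists; black bars are medians, red points are the clock genes, and dashed lines mark 2-fold. The medians run from -0.36 for the 3 other loop genes shown to 1.88 for the HIF targets, against 0.14 for the clock genes.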

How the data were processed

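RNA was sequenced from 2 libraries, CT26shSetdb1 and CT26shCtrl, 1 per group, grouped by the library names in the labels. The authors deposited FPKM values for 54680 loci with gene model lengths, per the file headers. CASAVA, HISAT2, featureCounts 1.5.0-p3 and build GRCm38 are named in the submitters' processing notes. The strand setting and annotation release are not given in the sources used here. Positions of all 10 clock genes equal those in GENCODE M21 (GRCm38).

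Reads were recovered as FPKM times gene length over the smallest such step. All values above 0 (100%) were within 0.01 reads of a whole number, and the steps were equal in both columns, which gives 1 common depth of 18731117 reads. Totals were 18421604 and 19045830 reads, so FPKM ratios carry a factor of 1.03. Ratios are log2((FPKM + 1) in CT26shSetdb1 over that in CT26shCtrl), with a pseudocount of 1, which understates changes of low genes. Genes entered when either library reached 1 FPKM and were called at 2-fold. With 1 library per group there was no test. The calculations were tested on simulated data.

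The 10 clock genes and the 7 lists were chosen with earlier results of these data known. All 10 genes, the other loop genes and the D-box factors are named, and of each other list the highest and lowest ratio; a few genes under this rule are not reported here. Setdb1 is named as the check of the labels, and Thra, Sphk2 and Gm43909, which overlap clock genes, were added after their values were seen, as were Csnk1d, Csnk1e, Ankrd37 and the marker genes named. Alternatives were a pseudocount of 0.1, 3 scalings, no filter or one at 5 FPKM, thresholds of 1.5-fold and 4-fold, and protein-coding genes only. Promoter windows are from RefSeq (GRCm38.p6). The software was matplotlib 3.10.9, scipy 1.17.1, pandas 2.3.3, numpy 2.4.6 and Python 3.11.15.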

Additional observations from a re-analysis of the deposited data

How the results depend on the processing

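The counts of 3 clock genes past 2-fold higher and 1 past 2-fold lower held with a pseudocount of 0.1 and under all 3 scalings. Dropping the filter could not change them, since all 10 genes reached 1 FPKM in both libraries. They also held with the filter at 5 FPKM in either library. Bhlhe41 passed that filter only in knockdown cells (5.01 FPKM) and Nr1d2 only in the control (5.56 FPKM). The counts were 4 and 1 at 1.5-fold, which 16.9% and 14.3% of all genes passed in those directions, and 0 and 0 at 4-fold. The median log2 ratio of the 10 genes ran from 0.0654 under upper-quartile scaling to 0.19 with the filter at 5 FPKM, which leaves 9 of them. Of 40 alternative values of single clock genes, 37 stayed within counting error, 3 moved without a change of direction and 0 of the called genes reversed. The 3 were Bhlhe40 at 1.79 under upper-quartile scaling, and Bhlhe41 at 1.49 and Nr1d2 at -1.58 with a pseudocount of 0.1. Among the 37 were 2 values of Arntl that changed sign, under scaling by own read totals and by the upper quartile. Each scaling applied 1 factor to all knockdown values, so the count of 37 also depends on the read depth of each gene. Over all genes tested, 727 were at least 2-fold higher and 518 lower. These counts were 1134 and 870 with a pseudocount of 0.1, 1804 and 1523 for a 1.5-fold threshold, and 116 and 56 for a 4-fold one, as the smaller pseudocount and those thresholds make them. Upper-quartile scaling moved the median of all genes most, by -0.0780. No paired analysis was possible because there was a single library in each group, so none could be left out either. Depth limits the low genes: Nr1d2 in the knockdown library rests on 182 reads and Arntl on 274.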
